A study of Mus musculus with 19 samples.

Results

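The mitochondrial respiratory chain and ATP synthase are built from subunits that 2 genomes encode, and 100 of the 25639 genes measured were subunit genes, chosen by name. Of these, 87 lie in the nucleus (names that start with Nduf and a subunit letter, the 4 Sdh subunits, Uqcr, Cox4 to Cox8 and Atp5, pseudogenes left out) and 13 in mitochondrial DNA (mt-Nd, mt-Co, mt-Cytb and mt-Atp). By complex, the nuclear genes numbered 37 for complex I, 4 for complex II, 8 for complex III, 20 for complex IV and 18 for complex V. The mitochondrially encoded genes numbered 7 for complex I, 1 for complex III, 3 for complex IV and 2 for complex V. Ndufa4 and Ndufa4l2 were counted with complex IV, where the protein of the first is now placed.

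Complexes I and II pass electrons from NADH and succinate to ubiquinone, complex III passes them to cytochrome c, and complex IV passes them to oxygen. Complexes I, III and IV pump protons across the inner mitochondrial membrane, and complex V, the ATP synthase, uses their return flow to make ATP. Mitochondrial DNA is transcribed as long precursors by its own polymerase, while each nuclear subunit gene has its own promoter and its protein is imported, and activated T cells and memory T cells are known to differ in how far they rely on this pathway.

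RNA was sequenced from T cells that had infiltrated liver metastases, taken 30 days after mice had received Venus-AKTPM/LOH colorectal cancer cells by injection into the spleen. CD45, CD3ε, CD4 and CD8α were the sort markers, and CD8 and CD4 cells gave separate libraries. Vav1CreTet2KO mice lacked Tet2, which encodes an oxidase of methylated cytosine, through a Cre driven by Vav1 and active across blood cells, and Cd4CreTet2KO mice through a Cre driven by Cd4 and active in T cells. Tet2fl/fl mice, the controls, carried the floxed Tet2 alleles that all groups share, with no Cre named. CD8 libraries numbered 3, 4 and 3 and CD4 libraries 3, 3 and 3 in that order of genotypes, each from its own animal within a cell type, and the sources used here give neither age nor sex. The CD8 and CD4 libraries of the same number carry the same animal number in Vav1CreTet2KO and in Tet2fl/fl, so that replicate 1 of both cell types in Vav1CreTet2KO came from 1 mouse.

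Levels are RPKM, reads scaled by gene length and by the library's total. Reads on genes ranged from 8189300 to 20327809 over CD8 and from 707866 to 17575534 over CD4 libraries, and the lowest total was that of CD4 Vav1CreTet2KO replicate 1, with 7761 genes above 0 where others had up to 16258. In all, 3 libraries stood apart from the rest: their median correlation with the other libraries of their cell type, across all genes, was 0.909 for CD8 Vav1CreTet2KO replicate 1, and 0.813 and 0.909 for CD4 Vav1CreTet2KO replicates 1 and 2. It was at least 0.944 for every other library. CD8 Vav1CreTet2KO replicate 1 also differed in its reads: of its genes with 1 to 20 reads, recovered from RPKM, 50.6% had an odd number, against 13.1% to 25.3% in the other CD8 libraries. Whether its reads were counted in another way, and what part that has in its raised values, was not tested. Markers of the sorted cell types stood as the labels say: Cd8a stood between 99.9 and 229.8 RPKM in CD8 libraries and at no more than 0.792 in CD4 libraries, Cd4 at 39.5 RPKM or more in CD4 libraries and at no more than 7.68 in CD8 libraries, and Cd3e at 91.3 RPKM or more in all. Whole-gene Tet2 had 6.28, 5.57 and 2.93 RPKM in CD8 Vav1CreTet2KO, 7.57, 4.40, 3.01 and 5.02 RPKM in CD8 Cd4CreTet2KO and 7.65, 8.06 and 6.57 RPKM in CD8 Tet2fl/fl, so that Vav1CreTet2KO lay below the controls and Cd4CreTet2KO overlapped them. In CD4 cells both knockouts overlapped the controls. Such a value, taken over all exons, says nothing of a deleted one.

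Sequences of both genomes show how differently these genes are organised. The shortest mitochondrially encoded member, mt-Atp8, spans 204 bases (GRCm38, chrMT:7766-7969, plus strand), and its last 43 bases, in capitals, are also the first of mt-Atp6, so that reads there can belong to either. It is shown because it was the highest of all members in CD4 Vav1CreTet2KO replicate 1 and shows how close these genes lie.
mt-Atp8: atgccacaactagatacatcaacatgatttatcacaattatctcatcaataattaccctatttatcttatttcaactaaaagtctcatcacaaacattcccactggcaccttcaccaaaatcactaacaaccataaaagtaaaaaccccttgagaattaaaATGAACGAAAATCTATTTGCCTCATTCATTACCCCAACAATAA
The pair mt-Nd4l and mt-Nd4 overlaps by 7 bases in the same way. For nuclear members, the 250 bases before the start given by RefSeq (GRCm38.p6) are shown for 3 genes whose levels are contrasted in the results: Cox6a1 (chr5:115348959-115349208, minus strand), Sdha (chr13:74350241-74350490, minus strand) and Uqcr10 (chr11:4704345-4704594, minus strand). Capitals mark matches, on either strand, to the letters of the factor NRF1 (GCGCA and GCGC set 1 base apart) and to CCGGAAG of the ETS family that includes GABP, both known regulators of respiratory chain genes.
Cox6a1: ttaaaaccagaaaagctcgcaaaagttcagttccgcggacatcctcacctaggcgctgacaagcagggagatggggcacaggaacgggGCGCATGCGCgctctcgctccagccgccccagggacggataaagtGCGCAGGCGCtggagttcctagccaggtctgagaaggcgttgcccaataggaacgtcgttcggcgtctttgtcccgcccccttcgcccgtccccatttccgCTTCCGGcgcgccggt
Sdha: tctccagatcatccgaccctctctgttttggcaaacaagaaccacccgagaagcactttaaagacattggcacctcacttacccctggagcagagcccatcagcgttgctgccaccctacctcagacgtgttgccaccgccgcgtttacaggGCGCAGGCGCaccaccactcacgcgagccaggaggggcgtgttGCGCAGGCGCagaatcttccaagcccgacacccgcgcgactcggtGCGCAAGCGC
Uqcr10: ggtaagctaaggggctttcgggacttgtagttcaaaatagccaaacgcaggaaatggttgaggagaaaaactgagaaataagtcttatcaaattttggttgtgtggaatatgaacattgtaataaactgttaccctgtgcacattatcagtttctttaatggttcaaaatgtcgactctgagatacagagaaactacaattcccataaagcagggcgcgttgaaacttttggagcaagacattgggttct
Cox6a1 held 2 NRF1 matches and 1 ETS match, Sdha held 3 NRF1 matches and Uqcr10 held none. Over 300 bases around the start, RefSeq gave promoters for 68 of the 87 nuclear members. NRF1 letters stood in 16 of them (23.5%), against 5.19% of 27025 promoters of all genes, and ETS letters in 17 (25%), against 9.93%. AAGATGGC, the letters of YY1, stood in 10 (14.7%, against 3.19%), and CCAATC in 15 (22.1%, against 18.2%). A match of letters is a description of the sequence and not a bound site.

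Transcripts of the mitochondrial genome were the more abundant by far, and among them the order of the complexes was the same in both cell types. In CD8 cells the median mitochondrially encoded member of complexes I, III, IV and V had a mean over libraries of 332, 709.8, 774 and 1236 RPKM. The median nuclear member of complexes I, II, III, IV and V had 12.7, 14.2, 23.6, 13.7 and 28.5 RPKM. In CD4 cells, whose table was normalized separately, the same medians were 345, 773, 987 and 1628 RPKM for mitochondrially encoded members and 13.95, 14.7, 26.5, 16.1 and 31.6 RPKM for nuclear ones, where complexes V and III led in both cell types and complex I was lowest.

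The member with the highest mean among those of mitochondrial DNA was mt-Atp6, the proton channel subunit of ATP synthase, in both cell types. Its level was 3709.5, 1868 and 1327 RPKM in CD8 Vav1CreTet2KO, 1187, 611, 2169 and 2203 RPKM in CD8 Cd4CreTet2KO, against 1131, 1133 and 910.3 RPKM in CD8 Tet2fl/fl. Every Vav1CreTet2KO library lay above every control, while Cd4CreTet2KO libraries lay on both sides. Next came mt-Co1, the catalytic subunit of complex IV, at 2421, 1577 and 1040.1 RPKM in CD8 Vav1CreTet2KO, 1495, 883, 1397 and 1351 RPKM in CD8 Cd4CreTet2KO, against 1585, 1595 and 1446 RPKM in CD8 Tet2fl/fl, with Vav1CreTet2KO replicate 1 alone above the other 9. The lowest mean was that of mt-Nd3, a small core subunit of complex I, at 107 RPKM in CD8 and 100.2 RPKM in CD4 cells. Its values ran from 34.8 to 448 RPKM over CD8 libraries, and the libraries of highest and lowest value were Vav1CreTet2KO replicate 1 and Tet2fl/fl replicate 3.

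The other core subunits of complex I lay between these. mt-Nd1 averaged 718 ± 329.6 RPKM in CD8 Vav1CreTet2KO, 536 ± 115 RPKM in CD8 Cd4CreTet2KO and 476 ± 60.9 RPKM in CD8 Tet2fl/fl (SD, n = 3, 4 and 3). mt-Nd4 averaged 423 ± 212, 315 ± 68.6 and 352 ± 35.0 RPKM in the same groups, and mt-Nd5 563 ± 330.4, 359.6 ± 68.6 and 359 ± 39.9 RPKM. For mt-Nd6, the only one of the 13 on the other strand, the averages were 474 ± 405, 234 ± 55.2 and 278 ± 29.2 RPKM, and for mt-Nd4l, whose gene overlaps that of mt-Nd4, 467 ± 348, 284 ± 73.9 and 241 ± 29.7 RPKM. In each the wide SD of Vav1CreTet2KO came from 1 high library, replicate 1.

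Among nuclear members, the highest mean of each complex over all libraries belonged to the same gene in both cell types. These were Ndufa6 (complex I, an accessory subunit), Sdha (complex II, the flavoprotein that oxidises succinate), Uqcrb (complex III, near the ubiquinone site), Cox6c (complex IV, a small subunit) and Atp5h (complex V, subunit d of the stator stalk). Without the 3 libraries that stood apart, the highest of complex III was Uqcrh in both cell types (52.6 RPKM against 47.0 RPKM for Uqcrb in CD8 and 53.6 against 46.1 RPKM in CD4 cells), and that of complex IV was Cox4i1 in CD8 cells (57.3 RPKM) and Cox5b in CD4 cells (50.3 RPKM). Ndufa6, Sdha and Atp5h kept their place. Atp5h, the highest of all in CD8 cells, stood at 573, 169.5 and 107 RPKM in Vav1CreTet2KO, 123, 80.5, 134 and 107 RPKM in Cd4CreTet2KO, against 119, 86.6 and 161 RPKM in Tet2fl/fl. In CD4 cells it stood at 368, 526 and 75.4 RPKM in Vav1CreTet2KO, 136, 68.9 and 87.3 RPKM in Cd4CreTet2KO, against 114, 77.6 and 89.0 RPKM in Tet2fl/fl. The 3 highest values were those of the 3 libraries that stood apart, and the other libraries of all genotypes overlapped. Sdha showed another pattern: its level was 57.5, 30.6 and 25.6 RPKM in CD8 Vav1CreTet2KO, 30.4, 30.3, 26.1 and 25.5 RPKM in CD8 Cd4CreTet2KO, against 38.9, 27.3 and 36.7 RPKM in CD8 Tet2fl/fl. In CD4 cells it stood at 22.4, 19.4 and 30.6, 31.3, 26.6 and 28.7 and 35.7, 29.3 and 25.9 RPKM in the same genotypes, so that Vav1CreTet2KO replicates 1 and 2 were the lowest CD4 libraries.

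Complex IV has tissue-specific isoforms, and T cells in these tumors mainly held the forms known from most tissues. Cox4i1, Cox6a1, Cox6b1, Cox7a2, Cox7a2l, Cox8a and Ndufa4 were above 0 in every CD8 library. In CD4 cells Ndufa4 was listed at 0 in Vav1CreTet2KO replicate 1, the shallowest library, and above 0 elsewhere. Cox4i2, Cox7b2, Cox8b and Cox8c, forms known from lung, testis or striated muscle, were listed at 0 in all 19 libraries, Cox7a1, of heart and muscle, reached 0.484 RPKM and Ndufa4l2, induced by low oxygen, 0.702 RPKM, each in 1 library and at 0 in the rest. Cox6b2, a testis form too low to be tested in CD8 cells, had levels of 0, 0 and 0 RPKM in CD8 Vav1CreTet2KO, 0.239, 0.0901, 0 and 0 RPKM in CD8 Cd4CreTet2KO and 0.942, 0.919 and 1.36 RPKM in CD8 Tet2fl/fl, where controls were the highest, and overlapped between genotypes in CD4 cells. Cox6a2, the heart and muscle form of subunit 6A, was the exception and is described with the comparisons.

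The summed level of the nuclear members set 3 libraries apart from the other 16. In CD8 cells the 87 genes summed to 6006, 2101 and 1476 RPKM in Vav1CreTet2KO, 1997, 1425, 1750.1 and 1432 RPKM in Cd4CreTet2KO, against 2078, 1437 and 1924 RPKM in Tet2fl/fl. In CD4 cells they summed to 5143, 5519.7 and 1425 RPKM in Vav1CreTet2KO, 1929, 1188 and 1427 RPKM in Cd4CreTet2KO, against 1737, 1307 and 1594 RPKM in Tet2fl/fl. CD8 Vav1CreTet2KO replicate 1 and CD4 Vav1CreTet2KO replicates 1 and 2 were high, and the remaining Vav1CreTet2KO libraries lay within or next to the range of the other genotypes.

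The 13 mitochondrially encoded members followed the same 3 libraries. Their sum was 19937, 8440.2 and 6038 RPKM in CD8 Vav1CreTet2KO, 8046, 4666, 7894 and 7726 RPKM in CD8 Cd4CreTet2KO, against 7299, 7179 and 6366 RPKM in CD8 Tet2fl/fl. In CD4 cells this sum came to 17549.8, 16725 and 7809.7 RPKM in Vav1CreTet2KO, 5828, 6870.5 and 6706 RPKM in Cd4CreTet2KO, against 8783, 7514 and 7236 RPKM in Tet2fl/fl. All 3 CD4 Cd4CreTet2KO libraries lay below the controls, with the nearest values at 6870.5 and 7236 RPKM, but after rescaling by TMM factors they overlapped, with a highest knockout sum of 7387 against a lowest control sum of 7121 RPKM. The ratio of the mitochondrial to the nuclear sum was 3.32, 4.02 and 4.09 in CD8 Vav1CreTet2KO, 4.03, 3.27, 4.51 and 5.39 in CD8 Cd4CreTet2KO and 3.51, 4.997 and 3.31 in CD8 Tet2fl/fl, and the groups overlapped. In CD4 cells it was 3.41, 3.03 and 5.48, 3.02, 5.79 and 4.70 and 5.06, 5.75 and 4.54 in the same genotypes, again with overlap.

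**Figure D1:**
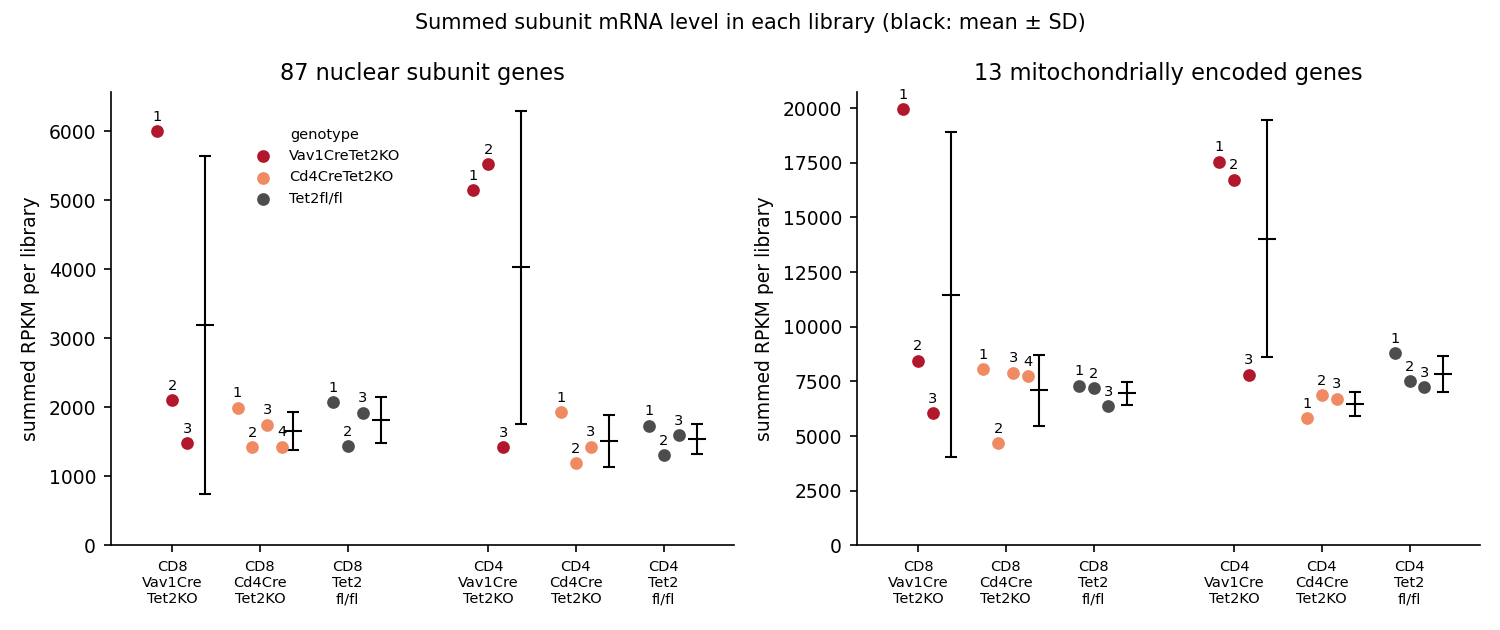
Summed RPKM of the 87 nuclear members and of the 13 mitochondrially encoded members by library, with 1 point per library labelled by its replicate number, grouped by cell type and genotype, and lines for the mean and SD of each group. CD8 Vav1CreTet2KO replicate 1 and CD4 Vav1CreTet2KO replicates 1 and 2 lie above all other libraries in both panels, at 5143 RPKM or more for nuclear and 16725 RPKM or more for mitochondrially encoded members.

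As a share of reads on genes, nuclear members took 1.07, 0.495 and 0.479% in CD8 Vav1CreTet2KO against 0.422% to 0.544% in the other 7 CD8 libraries, and 1.29, 1.05 and 0.449% in CD4 Vav1CreTet2KO against 0.357% to 0.495% in the other 6 CD4 libraries. Mitochondrially encoded members took 3.09, 1.64 and 1.53% in CD8 Vav1CreTet2KO and 3.43, 2.71 and 1.955% in CD4 Vav1CreTet2KO. The 77 tested cytosolic ribosome protein genes, another class of short and abundant transcripts, were set beside these shares. They and the 3 untested ones took 11.9, 6.06 and 9.09% of reads in CD8 Vav1CreTet2KO, 5.98, 7.20, 8.64 and 5.54% in CD8 Cd4CreTet2KO and 5.66, 5.19 and 5.49% in CD8 Tet2fl/fl. In CD4 cells they took 9.65, 9.61 and 7.10%, 6.14, 4.00 and 4.31% and 5.16, 4.98 and 6.67% in the same genotypes. The libraries that stood apart were again the highest of their cell type. The order of the other CD8 libraries differed between the ribosome and nuclear shares. Of Vav1CreTet2KO replicates 2 and 3, replicate 3 had the higher ribosome share and the lower nuclear share. The part of such a shift in the results was not tested, and in these bulk samples fewer cells of a type and less RNA per cell cannot be told apart.

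In the 3 libraries with raised sums, the median of short members was higher than that of long ones. Against the median of the Tet2fl/fl libraries of the same cell type, on log2(RPKM + 1) after rescaling by TMM factors, the median nuclear member of CD8 Vav1CreTet2KO replicate 1 stood 1.05 higher and the median mitochondrially encoded member 1.62 higher, while the median of all genes was -0.12. In CD4 Vav1CreTet2KO replicate 1 these values were 1.36, 1.21 and -0.71, and in replicate 2 they were 1.34, 1.19 and -0.01. In the other libraries the nuclear medians lay between -0.25 and 0.24 and the mitochondrially encoded medians between -0.37 and 0.50.

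Split by the length of the gene model, nuclear members of up to 700 bases stood a median of 1.75 higher in CD8 Vav1CreTet2KO replicate 1, those of over 700 to 1500 bases 1.46 higher and longer ones 0.44 higher. The medians for the same classes were 2.08, 1.495 and 0.54 in CD4 Vav1CreTet2KO replicate 1 and 2.32, 1.43 and 0.81 in replicate 2. All genes of the same classes had medians of 0.60, 0.42 and -0.17 in the CD8 library, 0.00, -0.34 and -0.75 in CD4 replicate 1 and 1.26, 0.75 and -0.08 in CD4 replicate 2. The descriptive Spearman rho between length and difference across nuclear members of 1 library was -0.49, -0.42 and -0.48 in the same order. It was also negative, from -0.41 to -0.17, in 9 of the other 10 knockout libraries, and reached -0.41 in CD8 Cd4CreTet2KO replicate 3. A negative rho was thus not limited to the 3 libraries, but all libraries of a cell type share 1 Tet2fl/fl median. These values are therefore not independent, and the part of the controls in them was not tested. Across all genes rho was -0.13, -0.07 and -0.23 in the 3 libraries. Atp5mpl, a small proteolipid of ATP synthase with a gene model of 696 bases, and Sdha, with one of 2900 bases, are examples of a short and a long member. Not all long members were like Sdha. In the 3 libraries Cox6c (1596 bases) stood 2.63, 3.30 and 3.13 higher and Atp5md (2755 bases) 2.33, 2.80 and 2.98 higher. Atp5mpl had levels of 530.2, 87.4 and 42.6 RPKM in CD8 Vav1CreTet2KO, 56.9, 28.2, 69.1 and 44.9 RPKM in CD8 Cd4CreTet2KO, against 37.0, 36.9 and 23.4 RPKM in CD8 Tet2fl/fl. In replicate 1 Atp5mpl was thus far above its highest control, 37.0 RPKM, while Sdha, with values given above, was at 57.5 RPKM against at most 38.9 RPKM in controls.

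**Figure D2:**
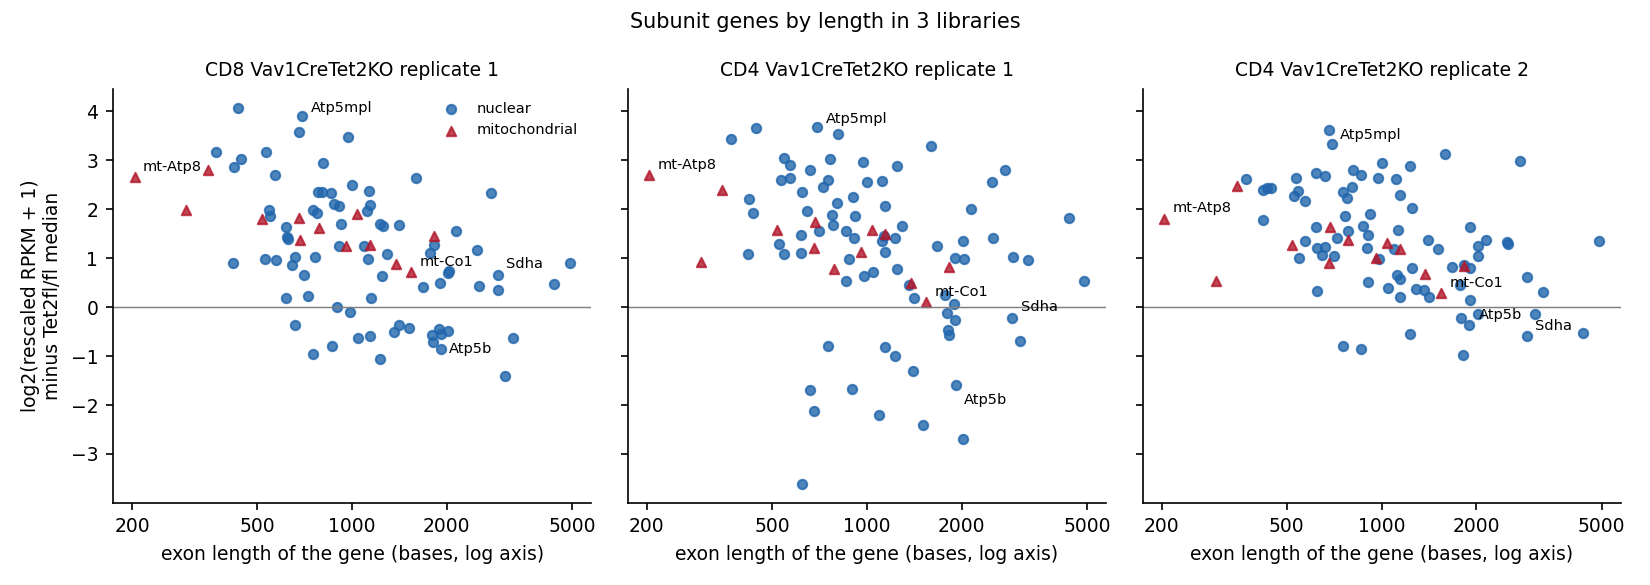
Difference of each member from the Tet2fl/fl median of its cell type, as log2(RPKM + 1) after rescaling by TMM factors, against the length of its gene model in bases on a log axis, for the 3 Vav1CreTet2KO libraries that stood apart, with nuclear and mitochondrially encoded members in separate colors. Short members have the highest medians, with nuclear values of 1.75, 2.08 and 2.32 for lengths of up to 700 bases. Some long members lie above those medians, among them Cox6c (1596 bases) and Atp5md (2755 bases).

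**Figure D3:**
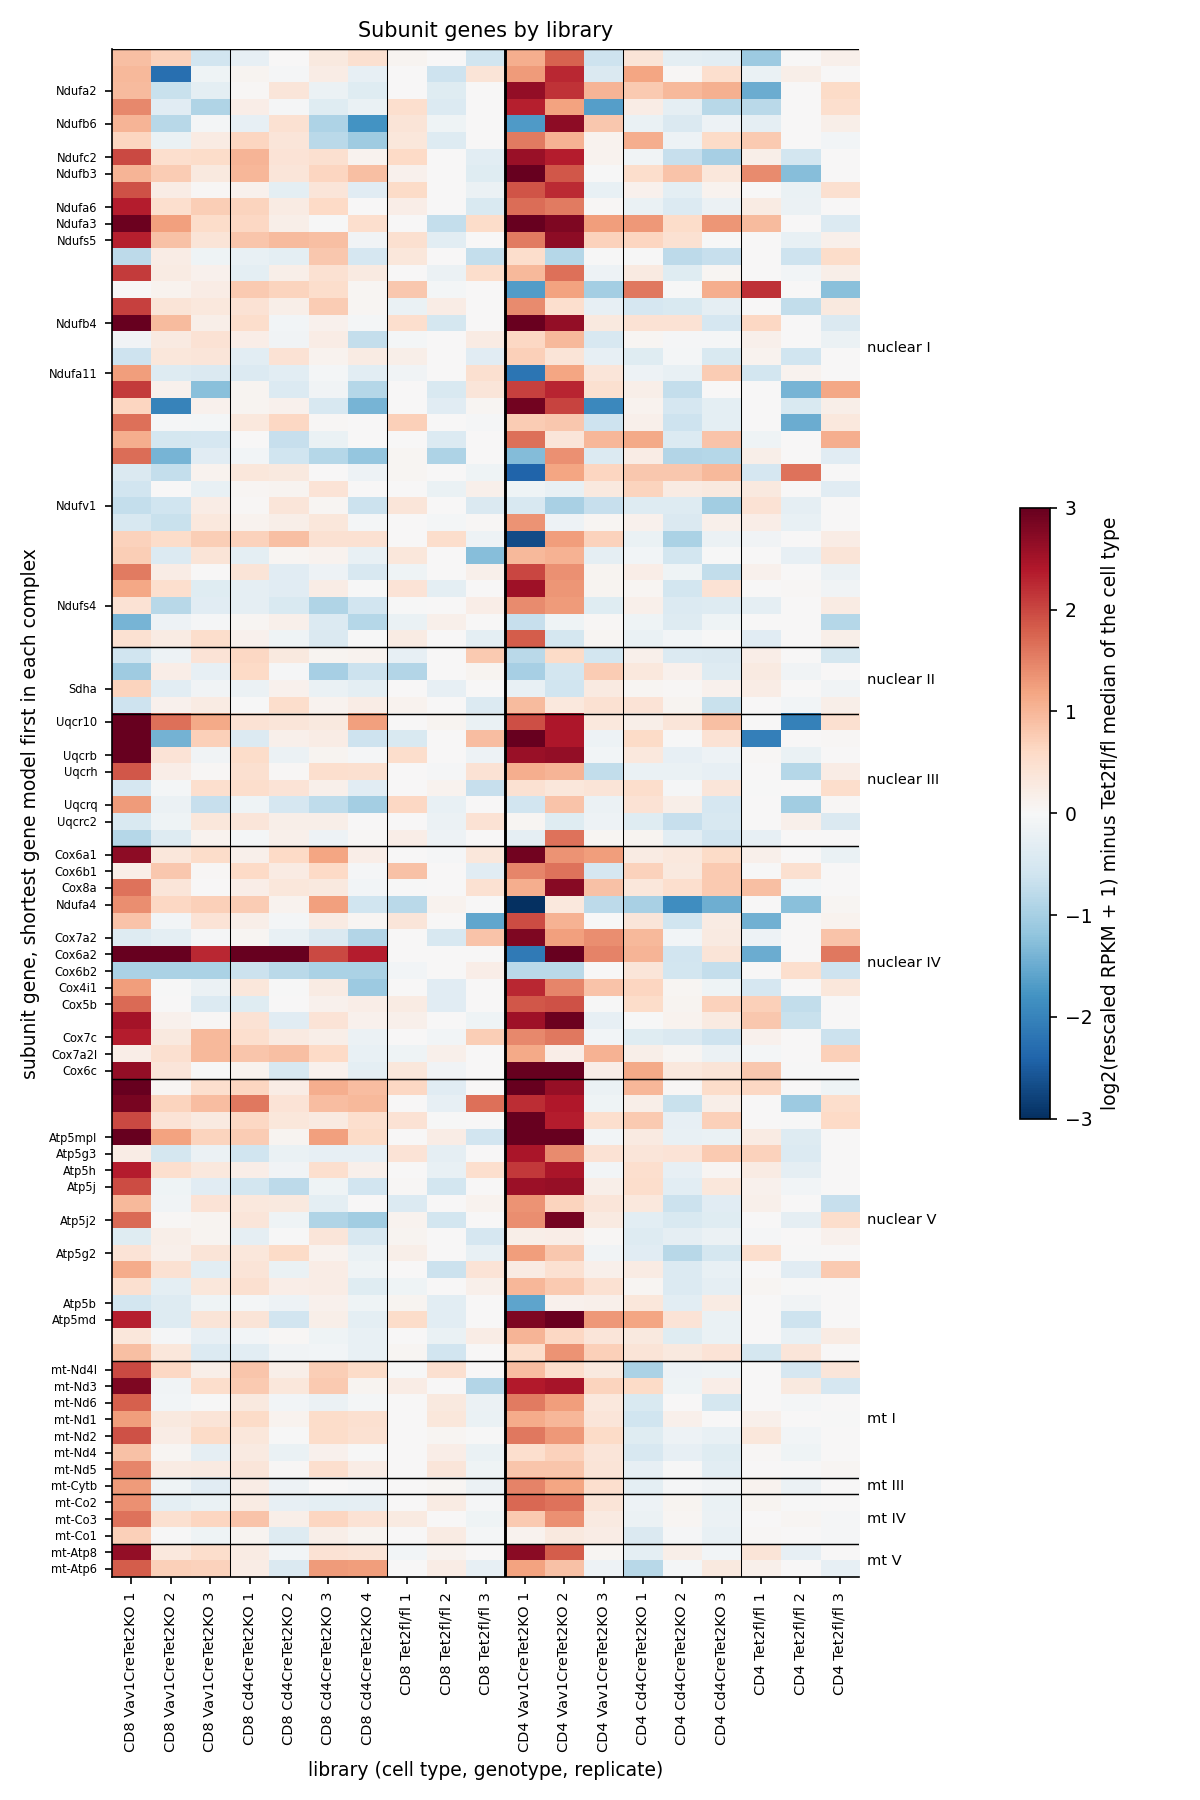
Difference of each member from the Tet2fl/fl median of its cell type (color, log2 of rescaled RPKM + 1) in every library, with tested genes in rows by genome and complex (rows of members named in the text are labelled) and libraries in columns by cell type and genotype, Vav1CreTet2KO first. Raised values fill the columns of CD8 Vav1CreTet2KO replicate 1 and CD4 Vav1CreTet2KO replicates 1 and 2, and few of the other columns.

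CD8 cells with Tet2 removed across blood cells were set against Tet2fl/fl to ask whether subunit transcripts differ when all blood lineages lack Tet2. By limma on log2(RPKM + 1), adjusted over 10224 genes, 1 of 78 tested nuclear members was higher at an adjusted p under 0.05 and none was lower. Of all genes tested 1.46% passed in either direction and 0.45% passed as higher. The member was Cox6a2, which passed the filter through knockout libraries alone. None of the 13 mitochondrially encoded members passed, and by limma 0 had an unadjusted p under 0.05, against 6 nuclear members, all higher (5.71% of all genes higher, 11.6% lower). The median log2 fold change was 0.38 over tested nuclear and 0.50 over mitochondrially encoded members, while that of all genes tested was -0.11. By complex the nuclear medians were 0.18 for I, -0.12 for II, 0.29 for III, 0.71 for IV and 0.44 for V, and those of mitochondrially encoded members were 0.50, 0.22, 0.13 and 1.03 for I, III, IV and V. Of the tested members, 54 of 78 nuclear and 13 of 13 mitochondrially encoded ones were above 0 (41.6% of all genes). Without Vav1CreTet2KO replicate 1 the medians were -0.05 and 0.11.

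Uqcr10, a small subunit of complex III, stood at 218, 42.9 and 21.2 RPKM in Vav1CreTet2KO, against 12.8, 11.5 and 10.6 RPKM in Tet2fl/fl. The groups did not overlap, and the value of Vav1CreTet2KO replicate 1 was the highest by far (log2 fold change 2.24, SE 0.62, limma adjusted p = 0.0923). Atp5mpl, whose values are given above, did not overlap between these groups either (log2 fold change 1.96, SE 0.68, limma adjusted p = 0.173). Ndufa3, an accessory subunit of complex I, stood at 71.5, 22.7 and 9.85 RPKM in Vav1CreTet2KO, against 8.88, 4.26 and 13.1 RPKM in Tet2fl/fl, with overlap (log2 fold change 1.56, SE 0.57, limma adjusted p = 0.184). Ndufa6 stood at 177.5, 52.4 and 44.4 RPKM in Vav1CreTet2KO against 41.8, 31.0 and 25.2 RPKM in Tet2fl/fl, with every knockout library above every control (log2 fold change 1.20, SE 0.44, limma adjusted p = 0.193). Ndufa4 stood at 12.8, 7.67 and 5.88 RPKM in Vav1CreTet2KO against 2.08, 4.22 and 4.32 RPKM in Tet2fl/fl, also apart (log2 fold change 1.09, SE 0.45, limma adjusted p = 0.239). Ndufb4 and Ndufs5, accessory subunits of complex I, had log2 fold changes of 1.46 and 1.07 (limma adjusted p = 0.296 and 0.289), with overlap in both. None of these members passed. All Vav1CreTet2KO libraries lay above all controls for 8 nuclear and 3 mitochondrially encoded members (6.92% of all genes), and below for 1 and 0 (12.9%). After rescaling by TMM factors the counts above were 10 and 4 (10.6%) and those below 0 and 0 (11.8%).

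Of the mitochondrial genome, mt-Co3, a core subunit of complex IV, stood at 1075, 524 and 419 RPKM in CD8 Vav1CreTet2KO, against 446, 317 and 325 RPKM in Tet2fl/fl (log2 fold change 0.79, SE 0.38, limma adjusted p = 0.313). The groups overlapped at 419 and 446 RPKM, but lay apart after rescaling by TMM factors, at 449 RPKM or more against 385 RPKM or less. mt-Atp8, the small subunit whose sequence is shown, stood at 3343, 715 and 597 RPKM in Vav1CreTet2KO, against 535, 523 and 546 RPKM in Tet2fl/fl, without overlap (log2 fold change 1.07, SE 0.53, limma adjusted p = 0.32). mt-Nd2, a core subunit of complex I, stood at 919, 304.9 and 281 RPKM in Vav1CreTet2KO, against 261, 231 and 247 RPKM in Tet2fl/fl, also without overlap (log2 fold change 0.80, SE 0.41, limma adjusted p = 0.337). mt-Nd3 was at 1.21 on the log2 scale (limma adjusted p = 0.333). On reads recovered from RPKM, DESeq2 called 6 nuclear members (Cox6a2, Uqcr10, Atp5mpl, Ndufa3, Ndufb4 and Ndufa6) and 2 mitochondrially encoded ones (mt-Atp8 and mt-Co3), all higher, while edgeR called Cox6a2 alone. These counts stand without the share of all genes called by the same method.

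Cox6a2 was present in every CD8 knockout library and was listed at 0 in every CD8 control. Its level was 11.9, 10.2 and 3.21 RPKM in Vav1CreTet2KO, 21.4, 6.62, 2.65 and 3.898 RPKM in Cd4CreTet2KO, against 0, 0 and 0 RPKM in Tet2fl/fl. The reads behind these values were 191, 126 and 50 in Vav1CreTet2KO, 649, 266, 60 and 108 in Cd4CreTet2KO and 0, 0 and 0 in Tet2fl/fl, so that no library overlapped. The level was 8.44 ± 4.61 RPKM (SD, n = 3) in Vav1CreTet2KO and 8.66 ± 8.69 RPKM (SD, n = 4) in Cd4CreTet2KO. A level of 3 reads over the 3 control libraries together is 0.0653 RPKM. The mean was 129-fold that level in Vav1CreTet2KO and 132-fold in Cd4CreTet2KO. Of genes with 1 to 20 reads, 15.7%, 16.9% and 22.3% had an odd number in Tet2fl/fl replicates 1, 2 and 3. Low counts there were thus mostly even, so that reads did not come singly and these folds are not lower limits. Without Cd4CreTet2KO replicate 1, the highest library, the mean of that genotype was 4.39 RPKM, or 67.2-fold the same level. The limma test gave an adjusted p of 0.0251 for Vav1CreTet2KO and 0.0448 for Cd4CreTet2KO against Tet2fl/fl, and the fitted change itself depends on the pseudocount. These p-values are limited by the filter, which Cox6a2 passed only through the libraries where it was high. With no filter the limma adjusted p was 0.113 and 0.151, and Cox6a2 was not called.

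The call of Cox6a2 was lost when most single libraries were left out. Its log2 fold change, which depends on the pseudocount, stayed at 2.36 or more without any 1 knockout library. On the RPKM scale the mean of Cd4CreTet2KO fell from 8.66 to 4.39 RPKM without its replicate 1. The log2 fold change was 3.08 for Vav1CreTet2KO and 2.90 for Cd4CreTet2KO, and ran from 2.78 to 3.59 and from 2.36 to 3.24 when 1 knockout library was left out. Leaving out 1 control could not alter it, since all controls were at 0. Against Tet2fl/fl, leaving out Vav1CreTet2KO replicates 1, 2 and 3 in turn gave a limma adjusted p of 0.0926, 0.0536 and 0.0331, and leaving out the controls of the same numbers 0.131, 0.094 and 0.0816. For Cd4CreTet2KO, p lay between 0.0501 and 0.157 when any of its own 4 replicates was left out, and at 0.304, 0.145 and 0.128 when Tet2fl/fl replicates 1, 2 and 3 were. Over all alternatives the adjusted p ranged from 4.00e-08 to 0.131 for Vav1CreTet2KO and from 2.13e-08 to 0.304 for Cd4CreTet2KO, and edgeR on recovered reads called it in both comparisons.

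In CD4 cells Cox6a2 overlapped between all genotypes. It stood at 0, 56.1 and 9.99 RPKM in Vav1CreTet2KO, 8.42, 1.79 and 4.42 RPKM in Cd4CreTet2KO, against 0.600, 3.52 and 12.1 RPKM in Tet2fl/fl, and the 0 was in the shallowest library. Cox6a1, the form of most tissues, had levels of 169, 34.8 and 29.1 RPKM in CD8 Vav1CreTet2KO, 26.9, 30.2, 49.5 and 25.2 RPKM in CD8 Cd4CreTet2KO, against 27.0, 22.5 and 32.8 RPKM in CD8 Tet2fl/fl. It exceeded Cox6a2 per length in every CD8 library, and its groups overlapped.

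In the tables' annotation Cox6a2 lies on the minus strand of chromosome 7 (127804607 to 127805559, in a build that the tables do not name) inside Itgad on the plus strand (127753548 to 127822988). The sources used here do not say whether counts use strand. Itgad reached no more than 1.08 RPKM in any library, and the part of its reads in the Cox6a2 values was not tested. Muscle markers and dendritic cell markers were measured beside it, since Cox6a2 is known from striated muscle and from plasmacytoid dendritic cells of the mouse. The 4 muscle markers Ckm, Acta1, Mylpf and Tnnt3 summed to 17.3, 1.73 and 1.70 RPKM in CD8 Vav1CreTet2KO, 1.31, 1.04, 2.97 and 3.23 RPKM in CD8 Cd4CreTet2KO, against 0.163, 1.67 and 3.04 RPKM in CD8 Tet2fl/fl, with overlap. The 5 dendritic cell markers Flt3, Clec9a, Xcr1, Zbtb46 and Siglech all reached 1 RPKM in at least 1 library and summed to 57.3, 84.5 and 41.2 RPKM in CD8 Vav1CreTet2KO, 133, 41.1, 15.1 and 28.5 RPKM in CD8 Cd4CreTet2KO, against 4.93, 4.19 and 16.1 RPKM in CD8 Tet2fl/fl. The 2 lowest values of that sum were controls, and the third control lay within the knockout range.

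Siglech, the marker of plasmacytoid dendritic cells in that list, had levels of 25.1, 38.6 and 14.6 RPKM in CD8 Vav1CreTet2KO, 59.3, 16.9, 6.11 and 8.42 RPKM in CD8 Cd4CreTet2KO, against 1.36, 0.804 and 5.64 RPKM in CD8 Tet2fl/fl, so that every knockout library lay above every control. In CD4 cells it stood at 8.48, 39.3 and 56.6 RPKM in Vav1CreTet2KO, 21.8, 7.69 and 15.0 RPKM in Cd4CreTet2KO, against 5.57, 4.34 and 26.6 RPKM in Tet2fl/fl, with overlap as for Cox6a2. Of the other dendritic cell markers in CD8 cells, Flt3 also lay apart, at 5.31 RPKM or more in knockouts and 2.65 RPKM or less in controls. Clec9a, Xcr1 and Zbtb46 overlapped, with Zbtb46 at 0.417 to 4.67 RPKM in knockouts and 1.70 to 2.02 RPKM in controls. The libraries with the highest Cox6a2 and the highest Siglech were the same in CD8 cells (Cd4CreTet2KO replicate 1) and differed in CD4 cells. The part of these cells in the Cox6a2 values was not tested.

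**Figure D4:**
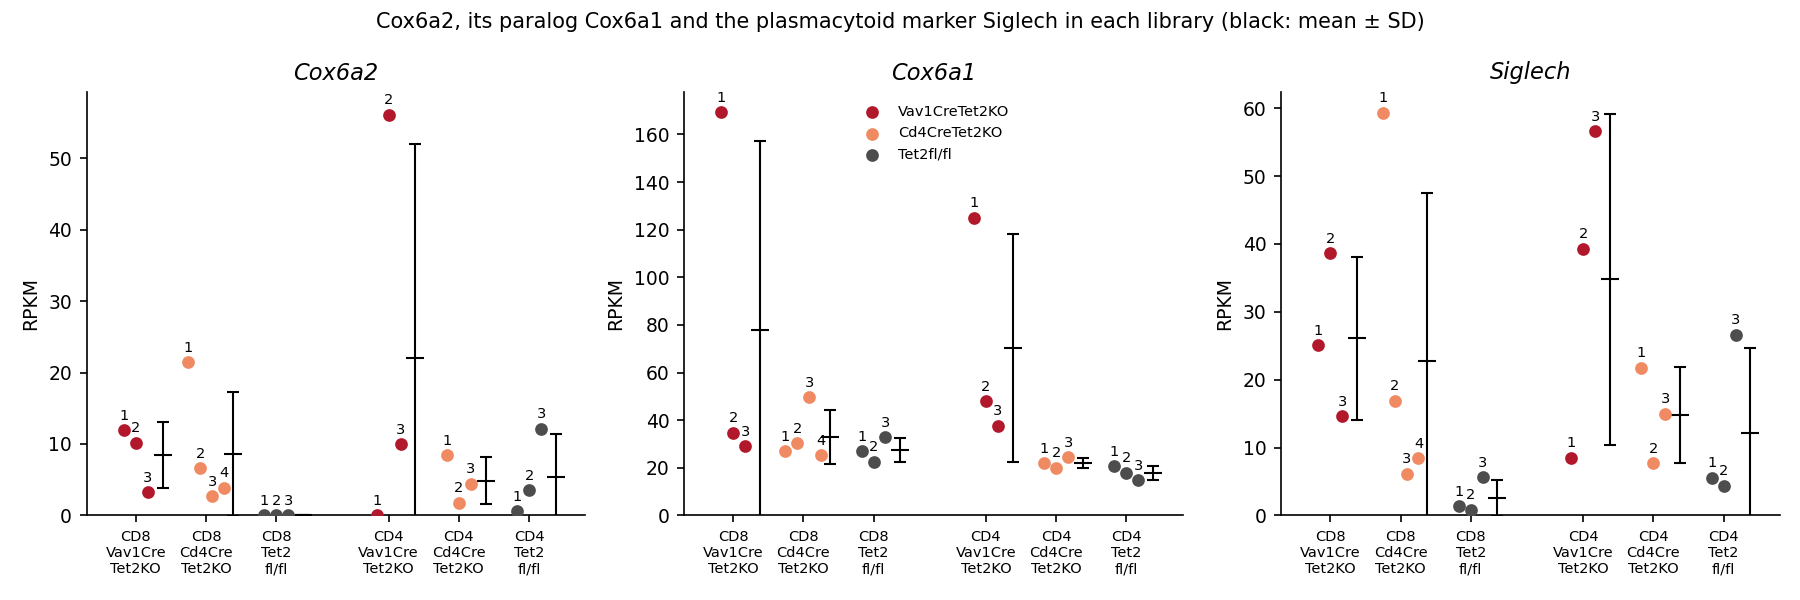
RPKM of Cox6a2, of its paralog Cox6a1 and of Siglech by library, with 1 point per library and groups in the order Vav1CreTet2KO, Cd4CreTet2KO and Tet2fl/fl within each cell type. Cox6a2 and Siglech are higher in all 7 CD8 knockout libraries than in the 3 CD8 controls, where Cox6a2 is at 0, and overlap between groups in CD4 cells. Black marks give mean and SD, with bars not drawn below 0.

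Deletion of Tet2 by Cre under Cd4 gave CD8 cells whose median subunit level was close to that of Tet2fl/fl, and Cox6a2 was higher. That member was the 1 call among 78 tested nuclear members, of which none was called lower (0.0782% of all genes passed as higher and 0.567% in either direction). None of the 13 mitochondrially encoded members passed. By limma 1 nuclear member, Cox6a2, was higher and 2 were lower at an unadjusted p under 0.05, and 0 mitochondrially encoded ones were either (3.7% of all genes higher, 8.7% lower). The medians were -0.13 for nuclear and 0.02 for mitochondrially encoded members against -0.15 for all genes tested, and 24 of 78 and 7 of 13 were above 0 (33.4% of all genes).

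Ndufs4, an accessory subunit needed to finish complex I, stood at 9.34, 6.58, 4.93 and 6.67 RPKM in Cd4CreTet2KO, against 12.7, 10.9 and 14.3 RPKM in Tet2fl/fl. All 4 knockout libraries lay below the controls, but the difference did not pass (log2 fold change -0.81, SE 0.31, limma adjusted p = 0.286, unadjusted p = 0.0212). Atp5g3, which encodes subunit c of the rotor ring, stood at 19.2, 20.98, 21.9 and 22.7 RPKM in Cd4CreTet2KO, against 44.9, 23.5 and 31.8 RPKM in Tet2fl/fl, also apart and not passing (log2 fold change -0.59, SE 0.26, limma adjusted p = 0.39). Other members of smallest p were Cox7a2 (log2 fold change -0.69), Uqcrq (-0.95), Ndufb3 (0.63), Ndufb6 (-0.89) and Ndufa11 (-0.60), with limma adjusted p from 0.44 to 0.596. mt-Co2, which receives electrons from cytochrome c, had the smallest p of the mitochondrial genome, at 832, 485, 509.6 and 528 RPKM in Cd4CreTet2KO, against 789.9, 805 and 739 RPKM in Tet2fl/fl (log2 fold change -0.44, SE 0.41, limma adjusted p = 0.74). Its highest library was Cd4CreTet2KO replicate 1 and the other 3 knockout libraries lay below the controls. mt-Nd3, mt-Co1 and mt-Atp6 had log2 fold changes of 0.51, -0.29 and 0.37. On RPKM, all knockout libraries lay below all controls for 3 nuclear members, Atp5g3, Ndufa11 and Ndufs4 (3.85%, against 14% of all genes). All knockout libraries lay above all controls for 1, Cox6a2 (1.28%, against 3.85%). After rescaling by TMM factors only Ndufs4 lay below (1.28%, against 8.26%), and Cox6a2, Ndufb3 and Uqcr10 lay above (3.85%, against 7.64%). On either scale 0 mitochondrially encoded members lay apart.

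The 9 macrophage markers summed to 256, 137, 5.46 and 8.57 RPKM in CD8 Cd4CreTet2KO, against 20.03, 10.6 and 9.32 RPKM in CD8 Tet2fl/fl, and stood highest in Cd4CreTet2KO replicates 1 and 2. Without both, the nuclear and mitochondrially encoded members called were 0 and 0, and Cox6a2 had a limma adjusted p of 0.254. Their part in the Cox6a2 call was not tested.

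Between the CD8 knockouts, Vav1CreTet2KO against Cd4CreTet2KO, no member of either genome passed, and 0% of all genes did. By limma 10 nuclear members had an unadjusted p under 0.05, all higher (3.64% of all genes higher, 2.71% lower), and 0 mitochondrially encoded ones did, while edgeR on recovered reads called 0 and DESeq2 called 1 (Uqcr10). The medians were 0.46 for nuclear and 0.52 for mitochondrially encoded members against 0.04 for all genes, and 64 of 78 and 13 of 13 were above 0 (54.2% of all genes). Uqcr10 stood at 218, 42.9 and 21.2 RPKM in Vav1CreTet2KO, against 15.9, 12.1, 12.6 and 25.8 RPKM in Cd4CreTet2KO (log2 fold change 1.83, SE 0.58, limma adjusted p = 0.721). Cox7c, a small subunit of complex IV, stood at 52.3, 12.6 and 14.8 RPKM in Vav1CreTet2KO, against 12.9, 8.79, 8.99 and 7.07 RPKM in Cd4CreTet2KO (log2 fold change 1.14, SE 0.43, limma adjusted p = 0.721). In both, Vav1CreTet2KO replicate 1 was the highest and the groups overlapped. Ndufa3, Atp5j2, Ndufb4, Cox6c, Atp5j and Ndufa6 had log2 fold changes of 1.39, 1.15, 1.52, 1.26, 1.15 and 0.95, and mt-Atp8, mt-Nd2, mt-Nd6 and mt-Nd5 had 1.05, 0.69, 0.71 and 0.51, with limma adjusted p of 0.721 for each nuclear and 0.729 for the last. Without that replicate the medians were 0.09 and 0.03 and 2 nuclear members had an unadjusted p under 0.05. Cox6a2 itself was at 0.19 on the log2 scale (limma adjusted p = 0.929).

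CD4 cells with Tet2 removed across blood cells had the largest departures of both genomes from Tet2fl/fl, carried by 2 of 3 libraries, and no member passed. By edgeR's quasi-likelihood test 0 of 79 tested nuclear members and 0 of 13 mitochondrially encoded members were called, and 0.00738% of the 13554 genes tested were. At an unadjusted p under 0.05, 33 nuclear and 11 mitochondrially encoded members were higher and none was lower (6.72% of all genes higher, 5.21% lower). DESeq2 called 16 and 5, all higher, counts that stand here without the share of all genes that DESeq2 called. The medians were 1.23 for nuclear and 0.87 for mitochondrially encoded members against -0.16 for all genes, 67 of 79 and 13 of 13 were above 0 (43.6% of all genes), and 43 and 6 were above 1 (16.6%). Groups did not overlap, with the knockout higher, for 10 nuclear and 6 mitochondrially encoded members (3.19% of all genes), and after rescaling by TMM factors for 14 and 10 (4.89%).

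By complex, the nuclear medians were 1.03 for I, -0.08 for II, 0.83 for III, 1.54 for IV and 1.59 for V, and members with an unadjusted p under 0.05 numbered 10 of 36, 0 of 4, 3 of 8, 9 of 14 and 11 of 17. Complex II, the one complex with no mitochondrially encoded subunit, thus had a median near that of all genes. Mitochondrially encoded members had medians of 0.81 for I, 1.14 for III, 0.87 for IV and 1.29 for V.

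In complex V, Atp5mpl stood at 568, 511 and 39.2 RPKM in Vav1CreTet2KO, against 60.3, 37.0 and 46.4 RPKM in Tet2fl/fl (log2 fold change 3.03, SE 0.64, edgeR adjusted p = 0.112). Replicates 1 and 2 were far above all controls, and replicate 3 lay among them. Atp5md, another small membrane subunit, stood at 18.1, 23.4 and 5.53 RPKM in Vav1CreTet2KO, against 2.09, 0.921 and 1.91 RPKM in Tet2fl/fl (log2 fold change 3.33, SE 0.70, edgeR adjusted p = 0.111), with all 3 knockout libraries above the controls. Atp5j, coupling factor 6 of the stator stalk, stood at 193, 227 and 34.5 RPKM in Vav1CreTet2KO, against 40.3, 33.9 and 34.1 RPKM in Tet2fl/fl (log2 fold change 2.14, SE 0.50, edgeR adjusted p = 0.15). Atp5h had values given above (log2 fold change 1.85, SE 0.48, edgeR adjusted p = 0.168). For Atp5j and Atp5h replicate 3 again lay within or below the controls. Atp5b, the catalytic beta subunit, stood at 19.2, 74.9 and 63.7 RPKM in Vav1CreTet2KO, against 69.3, 61.8 and 63.7 RPKM in Tet2fl/fl, with replicate 1 the lowest CD4 library (log2 fold change -0.19, SE 0.38, edgeR adjusted p = 0.886).

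In complexes III and IV, Uqcrb stood at 270.1, 319 and 40.0 RPKM in Vav1CreTet2KO, against 52.8, 43.1 and 47.1 RPKM in Tet2fl/fl (log2 fold change 2.20, SE 0.54, edgeR adjusted p = 0.153). Cox6c stood at 322, 327 and 34.9 RPKM in Vav1CreTet2KO, against 65.9, 35.5 and 34.1 RPKM in Tet2fl/fl (log2 fold change 2.42, SE 0.58, edgeR adjusted p = 0.15). In both, replicates 1 and 2 were high and replicate 3 lay at or near the lowest control. Cox4i1, the largest nuclear subunit of complex IV, stood at 162, 106 and 58.2 RPKM in Vav1CreTet2KO, against 26.6, 37.3 and 44.8 RPKM in Tet2fl/fl (log2 fold change 1.68, SE 0.41, edgeR adjusted p = 0.153). Cox6a1, whose promoter holds NRF1 and ETS letters, stood at 125, 47.8 and 37.6 RPKM in Vav1CreTet2KO, against 20.7, 17.9 and 14.8 RPKM in Tet2fl/fl (log2 fold change 2.09, SE 0.55, edgeR adjusted p = 0.175). For these 2 members all knockout libraries, replicate 3 included, lay above all controls. Sdha, whose promoter also holds NRF1 letters, was at -0.19 on the log2 scale (edgeR adjusted p = 0.859).

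Of the mitochondrial genome, mt-Cytb, the core of complex III, stood at 1523, 1403 and 735 RPKM in Vav1CreTet2KO, against 674, 531 and 575 RPKM in Tet2fl/fl (log2 fold change 1.14, SE 0.25, edgeR adjusted p = 0.122). mt-Co2 stood at 2037, 2186 and 766 RPKM in Vav1CreTet2KO, against 748, 678 and 656 RPKM in Tet2fl/fl (log2 fold change 1.35, SE 0.30, edgeR adjusted p = 0.127). For both, all knockout libraries lay above all controls, replicate 3 by a small margin. mt-Nd3 stood at 235, 286 and 68.2 RPKM in Vav1CreTet2KO, against 51.3, 61.1 and 33.2 RPKM in Tet2fl/fl (log2 fold change 2.09, SE 0.50, edgeR adjusted p = 0.15), and mt-Nd2 was at 1.11 on the log2 scale (SE 0.27, edgeR adjusted p = 0.153). mt-Atp8 stood at 4186, 2573 and 637 RPKM in Vav1CreTet2KO, against 976, 606 and 688 RPKM in Tet2fl/fl, where replicate 3 lay within the controls (log2 fold change 1.81, SE 0.47, edgeR adjusted p = 0.168). mt-Co1, the longest of complex IV in this genome, stood at 1557, 2023 and 1629 RPKM in Vav1CreTet2KO, against 1729.6, 1625 and 1514 RPKM in Tet2fl/fl, with overlap (log2 fold change 0.21, SE 0.18, edgeR adjusted p = 0.723).

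These CD4 values rest on Vav1CreTet2KO replicates 1 and 2. With both left out, the medians were 0.08 for nuclear and 0.33 for mitochondrially encoded members, and Atp5mpl, Cox6c, Uqcrb and Atp5h had log2 fold changes of -0.07, -0.14, -0.03 and -0.09. Without replicate 3, edgeR called 27 nuclear and 10 mitochondrially encoded members, all higher, with no share of all genes set beside these counts. The same 2 libraries held muscle markers at 14.8 and 6.05 RPKM summed, against 0.684 RPKM in replicate 3 and 2.05, 1.48 and 5.38 RPKM in Tet2fl/fl. Their 9 macrophage markers summed to 39.6 and 56.9 RPKM, against 27.0 RPKM in replicate 3 and 45.2, 1.15 and 55.7 RPKM in Tet2fl/fl. Their part in the result was not tested.

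**Figure D5:**
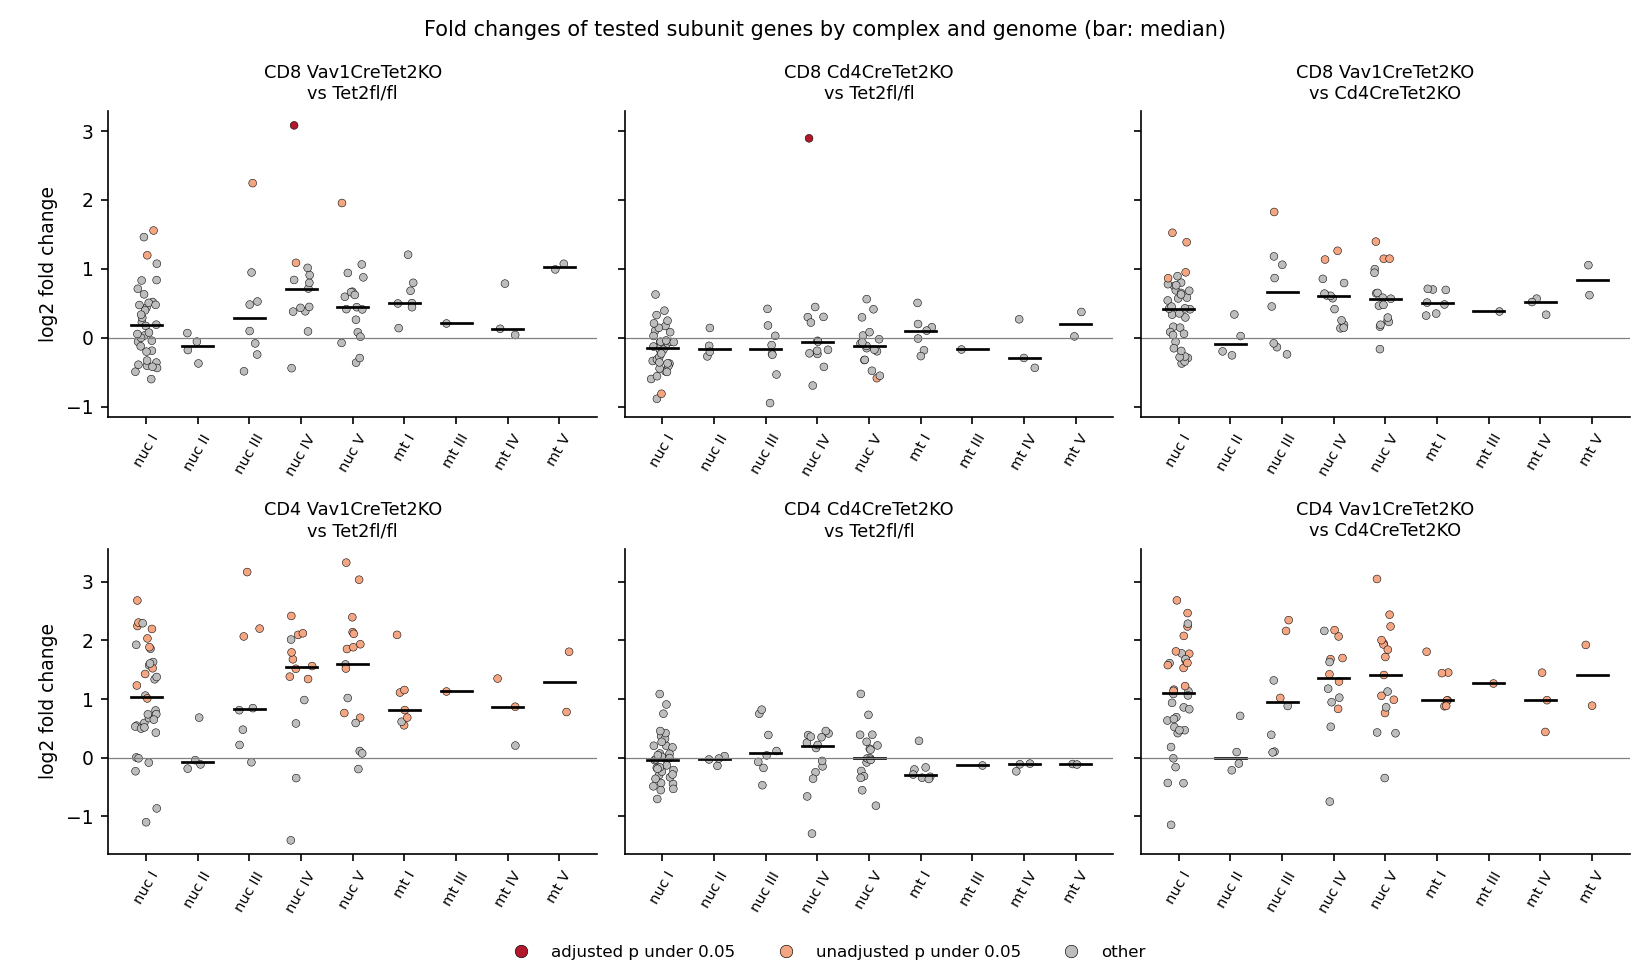
Log2 fold change of every tested member in the 6 comparisons, by complex and genome (nuc, nuclear, and mt, mitochondrially encoded), with 1 point per gene, a bar for the median and a line at 0. The darkest points, Cox6a2 in both CD8 knockouts against Tet2fl/fl, are the only calls at an adjusted p under 0.05, while in CD4 Vav1CreTet2KO against Tet2fl/fl the medians of nuclear complexes IV and V lie at 1.54 and 1.59 and that of complex II at -0.08.

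CD4 cells with Tet2 removed in T cells had median subunit levels near those of Tet2fl/fl. By edgeR 0 of 79 nuclear and 0 of 13 mitochondrially encoded members were called (0.0295% of all genes), 0 and 0 had an unadjusted p under 0.05 (1.76% of all genes higher, 0.738% lower), and DESeq2 called 0 and 0. The medians were -0.01 and -0.17 against 0.00 for all genes, and 37 of 79 nuclear but 1 of 13 mitochondrially encoded members were above 0 (50.3% of all genes). The 1 member above 0 was mt-Nd3, at 0.29. For 8 mitochondrially encoded and 6 nuclear members all knockout libraries lay below all controls (7.93% of all genes). After rescaling by TMM factors this held for 4 mitochondrially encoded (mt-Nd2, mt-Nd4, mt-Nd5 and mt-Co1) and 5 nuclear members (5.91% of all genes). Among them was mt-Nd4, a core subunit of complex I, at 250.4, 254 and 239.6 RPKM in Cd4CreTet2KO, against 363, 311 and 325 RPKM in Tet2fl/fl (log2 fold change -0.33, SE 0.21, edgeR adjusted p = 1). mt-Co1 stood at 1219.8, 1392 and 1246 RPKM in Cd4CreTet2KO, against 1729.6, 1625 and 1514 RPKM in Tet2fl/fl (log2 fold change -0.23, SE 0.18, edgeR adjusted p = 1), and mt-Nd2 and mt-Nd4l had log2 fold changes of -0.34 and -0.36. Among nuclear members of small p, which all had an edgeR adjusted p of 1, Atp5md (1.09), Ndufa2 (1.09) and Ndufa3 (0.91) had positive log2 fold changes, while Atp5g2 (-0.82), Ndufv1 (-0.70), the NADH-binding subunit, Uqcrc2 (-0.47) and Ndufa4 (-1.29) had negative ones.

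Between the CD4 knockouts, Vav1CreTet2KO against Cd4CreTet2KO, again no member passed by edgeR (0.0664% of all genes did), while 34 nuclear and 13 mitochondrially encoded members were higher at an unadjusted p under 0.05 (5.63% of all genes) and none was lower (5.06%). DESeq2 called 13 and 9, again without the share of all genes beside them. The medians were 1.13 and 0.98 against -0.19 for all genes, 70 of 79 and 13 of 13 were above 0 (42.2%), and 11 nuclear and 10 mitochondrially encoded members did not overlap (4.14% of all genes), or 19 and 11 after rescaling by TMM factors (5.54%). mt-Nd2 stood at 627, 591 and 296 RPKM in Vav1CreTet2KO, against 184.9, 187.3 and 181 RPKM in Cd4CreTet2KO (log2 fold change 1.45, SE 0.27, edgeR adjusted p = 0.0751). mt-Cytb stood at 1523, 1403 and 735 RPKM in Vav1CreTet2KO, against 499.7, 519 and 501 RPKM in Cd4CreTet2KO (log2 fold change 1.27, SE 0.25, edgeR adjusted p = 0.0751). In both all Vav1CreTet2KO libraries, replicate 3 included, lay above all Cd4CreTet2KO libraries. mt-Co2 and mt-Nd6, the subunit encoded on the other strand of mitochondrial DNA, had log2 fold changes of 1.45 and 1.44 (edgeR adjusted p = 0.0853 and 0.0986). Of nuclear members, Atp5mpl had 3.05 (edgeR adjusted p = 0.0919), Ndufc2 2.68, Uqcrb 2.16, Atp5j 1.93, Atp5j2 2.44, Ndufa6 1.53, Atp5h 1.72 and Cox6c 2.07 on the log2 scale. With Vav1CreTet2KO replicates 1 and 2 both left out, the medians were 0.09 and 0.46 and Atp5mpl, Uqcrb, Atp5j, Atp5h and Cox6c had values of -0.06, -0.08, -0.06, -0.23 and -0.50. Without replicate 3 alone, edgeR called 24 and 11, with no share of all genes set beside these counts.

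Genes that serve the same complexes without being subunits by name were followed as lists. In CD8 Vav1CreTet2KO against Tet2fl/fl, 1 of 41 tested assembly factors fell, Sdhaf1, which helps insert iron-sulfur clusters in complex II (log2 fold change -2.25, limma adjusted p = 0.0317), against 1.01% of all genes tested that fell, and the list had a median of -0.03. Of 24 genes of mitochondrial DNA transcription and RNA handling, 9 nuclear regulators such as Nrf1 and Gabpa, 14 genes of the tricarboxylic acid cycle, 75 mitochondrial ribosome proteins and 3 other respiratory chain proteins (Cyc1, Cycs and Ndufab1), 0 passed by limma, with medians of -0.30, -0.09, -0.19, -0.09 and 0.27. By limma they had 3, 0, 3, 3 and 0 members with an unadjusted p under 0.05, and 1 of these, Idh2 of the tricarboxylic acid cycle (1.21, limma adjusted p = 0.0667), was higher, where 11.6% of all genes were lower and 5.71% higher at that p. The cytosolic ribosome proteins had a median of 0.73, 0 calls and 39 of 77 higher at an unadjusted p under 0.05. In CD8 Cd4CreTet2KO against Tet2fl/fl these lists had 0 calls by limma, and 1, 1, 2, 3, 2, 0 and 0 genes of the assembly, transcription, regulator, acid cycle, mitochondrial ribosome, respiratory chain and cytosolic ribosome lists had an unadjusted p under 0.05. Of these 9 genes 1, of the acid cycle list, was higher and the rest were lower (3.7% of all genes higher, 8.7% lower). Between the CD8 knockouts limma again called 0, with 24 cytosolic ribosome proteins higher at an unadjusted p under 0.05 (3.64% of all genes) and a list median of 0.62.

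In CD4 Vav1CreTet2KO against Tet2fl/fl none of these lists had a call by edgeR. Medians were 0.06 for 45 assembly factors, -0.31 for 28 genes of mitochondrial DNA transcription and RNA handling, -0.61 for 10 nuclear regulators, 0.05 for the tricarboxylic acid cycle, 0.52 for mitochondrial and 0.77 for cytosolic ribosome proteins. At an unadjusted p under 0.05 the counts higher were 6, 1, 1, 0, 7 and 49 in that order, and 1, 2, 1, 0, 0 and 0 were lower. Of all genes 6.72% were higher and 5.21% lower at that p. Tfam, the packaging and transcription factor of mitochondrial DNA, had a log2 fold change of 1.86 (edgeR adjusted p = 0.209). Between the CD4 knockouts Rps29, a cytosolic ribosome protein, was the 1 call of these lists (2.15, edgeR adjusted p = 0.039), where 0.0664% of all genes passed. Of its list 57 of 77 were higher at an unadjusted p under 0.05 (5.63% of all genes), and the list median was 1.07. In CD4 Cd4CreTet2KO against Tet2fl/fl edgeR called 0. There 5 cytosolic ribosome proteins were lower at an unadjusted p under 0.05 (0.738% of all genes), and 0 genes of the other lists passed that p.

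Heat shock genes, whose transcripts respond to stress of tissue digestion and sorting as well as of the tumor, took a lower share of reads in the knockouts. The 11 genes took 1.14, 1.16 and 1.57% of reads in CD8 Vav1CreTet2KO, 1.07, 1.28, 1.44 and 1.41% in CD8 Cd4CreTet2KO and 2.83, 2.63 and 2.11% in CD8 Tet2fl/fl. In CD4 cells they took 1.01, 1.06 and 1.49%, 1.19, 1.16 and 1.33% and 3.30, 3.16 and 2.25% in the same genotypes, so that every knockout library lay below every control in both cell types. Against Tet2fl/fl, limma called 3 lower in CD8 Vav1CreTet2KO (Hspa1a, Hspa1b and Hspb1), where 1.01% of all genes were called lower. It called 1 lower in CD8 Cd4CreTet2KO (Hsph1), where 0.567% of all genes passed in either direction. In CD4 cells 0 passed by edgeR, with 8 and 6 lower at an unadjusted p under 0.05 (5.21% and 0.738% of all genes). In CD4 cells the 2 libraries with raised subunit levels had the lowest shares of all CD4 libraries, while CD8 Vav1CreTet2KO replicate 1 lay within the range of the other CD8 knockout libraries. The part of this share in the results was not tested.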

How the data were processed

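Libraries from total RNA of sorted tumor T cells came from a stranded SMARTer kit for picogram input and were sequenced in pairs on a HiSeq X and, for CD4 cells, trimmed, per the labels' protocols and the file headers. GRCm38 and mm10 are the builds in the submitters' processing notes, and the tables give no build for their coordinates. The aligner, the counter, its use of strand and its handling of reads that match several places (subunit pseudogenes, nuclear copies of mitochondrial DNA) are unstated in the sources used here. For CD4 cells the authors deposited read counts and RPKM per gene, and for CD8 cells the authors deposited RPKM alone, per the file headers. From the low values of the CD8 table whole reads were recovered, with 100.0% of values above 0 whole within 0.01. A further 18 columns of per-library values were not used.

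CD8 libraries were tested with limma 3.58.1 (trend) in R 4.3.3 on log2(RPKM + 1), for genes that reached 1 RPKM in 3 or more libraries. The pseudocount of 1 understates changes of low genes. CD4 libraries were tested on counts with edgeR 4.0.16 (robust quasi-likelihood test, TMM, filterByExpr with a minimum count of 10 and total of 15). All libraries of a cell type shared a fit, p-values were adjusted by Benjamini-Hochberg over all genes tested with a threshold of 0.05, and both scripts were tested on simulated data. Tests stayed within a table. Of the 87 nuclear members, 78 passed the filter in CD8 and 79 in CD4 cells, and 13 of 13 mitochondrially encoded members passed in both. Cox4i2, Cox7a1, Cox7b2, Cox8b, Cox8c, Ndufa4l2, Ndufb11b and Atp5o_1 passed in neither, and Cox6b2 in CD4 alone. Alternatives were other pseudocounts, filters and scalings, DESeq2 1.42.0, each library left out, a replicate block and, chosen after the data were seen, libraries that stood apart left out and overlap counted on rescaled values.

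Members and lists were chosen with earlier results of these data known. Named in each comparison were called members and the 8 nuclear and 4 mitochondrially encoded members of smallest p (1 such member is not reported here), and for levels the highest member of each complex, the mitochondrially encoded members and the isoforms of complex IV. Sdha, Atp5b, Cox6a1 and Siglech were also set beside others after their values were seen. Promoters and mitochondrial genes were read from RefSeq and the GRCm38 reference.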

Additional observations from a re-analysis of the deposited data

Results flagged for a closer look

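Of 45 groups of members and sums examined in the 4 CD8 Cd4CreTet2KO libraries, 4 had a library far from the others, and chance alone gives about 1 in 20. Replicate 2 was lowest by a wide gap for mt-Atp8, at 387.124 RPKM, for mt-Nd2, at 188.134 RPKM, and for the sum of the 13 mitochondrially encoded members, at 4665.7 RPKM. That sum includes both members, and the flags were set on RPKM before rescaling. After rescaling by TMM factors replicate 2 was lowest by less. It stood at 461 against 583 to 670 RPKM for mt-Atp8 and at 224 against 287 to 329 RPKM for mt-Nd2. For the sum it stood at 5561 against 7765 to 8669 RPKM. Replicate 1 was highest by a wide gap for mt-Co2, at 831.835 RPKM. Both replicates also held the highest macrophage marker sums of all CD8 libraries, at 256 and 137 RPKM, and their part in these values was not tested.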

How the results depend on the processing

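Of 1104 values of named members under alternatives, 1091 kept their direction, 79 newly passed the threshold and 17 no longer did. In CD8 Vav1CreTet2KO against Tet2fl/fl, nuclear members called numbered 0 to 2 when each library was left out, 6 by DESeq2 (with 2 mitochondrially encoded) and 0 on RPKM rescaled by TMM without Vav1CreTet2KO replicate 1. DESeq2 called 1 nuclear member between the CD8 knockouts. In CD8 Cd4CreTet2KO against Tet2fl/fl the count was 0 under a replicate block (Cox6a2 adjusted p = 0.0549), 0 without Cd4CreTet2KO replicates 1 and 2, and 0 to 0 with each library left out. With no filter in CD8 cells Cox6b2, lower in both knockouts, was the 1 call and Cox6a2 had limma adjusted p of 0.113 and 0.151. In CD4 Vav1CreTet2KO against Tet2fl/fl, 16 nuclear and 7 mitochondrially encoded members were called with no filter, 16 and 5 by DESeq2, and 0 to 27 and 0 to 10 with each library left out, the highest without replicate 3. Between the CD4 knockouts the same counts were 15 and 11, 13 and 9, and 0 to 24 and 0 to 11. The cause was not tested, and these counts stand without the share of all genes called under the same alternative. Same-numbered libraries correlated at -0.09 to 0.10 in CD4 and -0.08 to 0.07 in CD8 cells, so the numbers did not pair them, and under the replicate block edgeR called 0 members in CD4 cells. Between the CD8 knockouts without Vav1CreTet2KO replicate 1, mt-Nd6 and mt-Nd5 turned to -0.0461 and -0.0333 by edgeR and to -0.0386 and -0.0259 on RPKM rescaled by TMM. Without CD4 Vav1CreTet2KO replicates 1 and 2, Atp5mpl, Cox6c, Uqcrb and Atp5h turned to -0.0665, -0.14, -0.0324 and -0.0879 against Tet2fl/fl, and Atp5mpl, Uqcrb, Atp5j, Atp5h and Cox6c to -0.0591, -0.0773, -0.0559, -0.23 and -0.50 against Cd4CreTet2KO, where a lone library was assumed to vary like the other groups. The 707866 reads of CD4 Vav1CreTet2KO replicate 1 limit what its zeros show.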

Other observations

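The mitochondrially encoded genes of ATP synthase and of complex IV are known to come from shared precursors, and their balance differed between libraries. The ratio of mt-Atp6 to mt-Co1, both per length and chosen after their values were seen, was 1.53, 1.18 and 1.28 in CD8 Vav1CreTet2KO, 0.794, 0.692, 1.55 and 1.63 in CD8 Cd4CreTet2KO and 0.714, 0.711 and 0.629 in CD8 Tet2fl/fl. All 3 Vav1CreTet2KO libraries lay above the controls, and Cd4CreTet2KO libraries lay on both sides of 1, with replicates 1 and 2 near the controls. In CD4 cells the ratio was 2.30, 1.62 and 0.823 in Vav1CreTet2KO, 0.818, 1.06 and 1.52 in Cd4CreTet2KO and 1.15, 1.07 and 0.924 in Tet2fl/fl, with overlap.

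Other marker lists stood out in single libraries. Hepatocyte markers summed to 17.8 RPKM in CD8 Vav1CreTet2KO replicate 1 and to 12.6 RPKM in CD4 Vav1CreTet2KO replicate 2, erythroid markers to 50.3 RPKM in the last, and neutrophil markers to 76.8 and 46.3 RPKM in CD8 Cd4CreTet2KO replicates 1 and 2, with Ly6g at 0 in all libraries.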
